A study of Mus musculus with 16 samples.

Results

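The genes described are 10 members of the interleukin 6 family and the colony stimulating factors, measured in mouse dendritic cells given the bacterium Lactobacillus acidophilus NCFM. They are the IL-6-type cytokines Il6, Lif and Osm, the growth factors Csf1, Csf2 and Csf3, and the receptor chains Csf1r, Csf2ra, Csf2rb and Csf3r. They were chosen by gene symbol, with earlier results of these data known. The array's probe table gives these symbols to 18 of its 45101 probe sets, and the members are 10 of the 18193 genes measured.

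The cytokines Il6, Lif and Osm belong to a family whose receptors share the signalling chain gp130, encoded by Il6st, and act through JAK kinases and the transcription factor STAT3. Csf1 (M-CSF), Csf2 (GM-CSF) and Csf3 (G-CSF) are the growth factors of macrophages, of granulocytes and macrophages together, and of neutrophils. Csf1 binds Csf1r and Csf3 binds Csf3r, whereas GM-CSF binds an alpha chain, Csf2ra, that signals through a beta chain, Csf2rb. The receptors of IL-3 and IL-5 share this beta chain. GM-CSF is also the factor with which dendritic cells are grown from bone marrow.

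Bone marrow of C57BL/6 mice was cultured for 8 days with 15 ng/ml GM-CSF from a transfected myeloma line, and all groups stayed in 10 ng/ml GM-CSF during the stimulation. NCFM was given at 10 µg/ml for 4 h, 10 h or 18 h (3 arrays each), and control cells were taken at 4 h (3 arrays), 10 h (2 arrays) and 18 h (2 arrays). The GM-CSF in the medium is protein, so the arrays measured only the cells' own Csf2 mRNA. The sources used here do not say whether the arrays of a group came from separate mice or cultures, so a p-value here covers only array to array spread, which may be technical. In bulk RNA, fewer cells of a type and less RNA per cell cannot be told apart.

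The values are linear intensities. They have no absolute scale, and the intensity of a probe set cannot be set against that of another. Array medians lay between 162 and 167 and first quartiles between 104 and 108. All 9 dendritic cell markers measured lay above the array median on every array. So did all 7 macrophage markers measured and 7 of 9 neutrophil markers, whereas markers of T cells, B cells, NK cells, mast cells and stroma were dim, with at most 1 gene of each list above the median on every array. The labels number the arrays within a group. Arrays of the same number deviated together from their group means over all genes (r = 0.19 to 0.75 in 36 same-number pairs of arrays, median 0.42). Where treating the number as a pairing changed the call of a member, or that of a pathway gene for NCFM against control, the paired value is given. For members set against control the unpaired value stands beside it. Many pathway genes have the paired value alone, and those did not pass at that time without the pairing.

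NCFM was set against control at each time to see which ligands and receptors changed early and which later.  Il6 rose at all 3 times. Lif, Csf1, Csf3 and, by a small margin, Csf2 rose at 4 h. Lif was still higher at 10 h and Csf1 at 18 h. Csf2ra fell at 10 h and 18 h and Csf2rb at 10 h. Osm, Csf1r and Csf3r passed at no time without the pairing. With arrays paired by number, Osm rose and Csf1r fell at all 3 times, Csf1 also rose at 10 h, and Csf3r still did not pass.

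In limma, with p-values adjusted over all genes and called under 0.05, 5 of 10 members passed at 4 h, all of them ligands and all higher, where 18.3% of all genes passed, 5.27% higher and 13.1% lower. At 10 h 4 members passed, 2 higher and 2 lower, against 24.7% of all genes, 8.21% higher and 16.5% lower. At 18 h 3 members passed, 2 higher and 1 lower, against 23.7% of all genes, 7.4% higher and 16.3% lower, which is close to the members' own share. The median log2 difference of the 10 members was 0.52 at 4 h, 0.25 at 10 h and 0.16 at 18 h, and that of all genes was -0.01, 0.01 and 0.00.

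**Figure D1:**
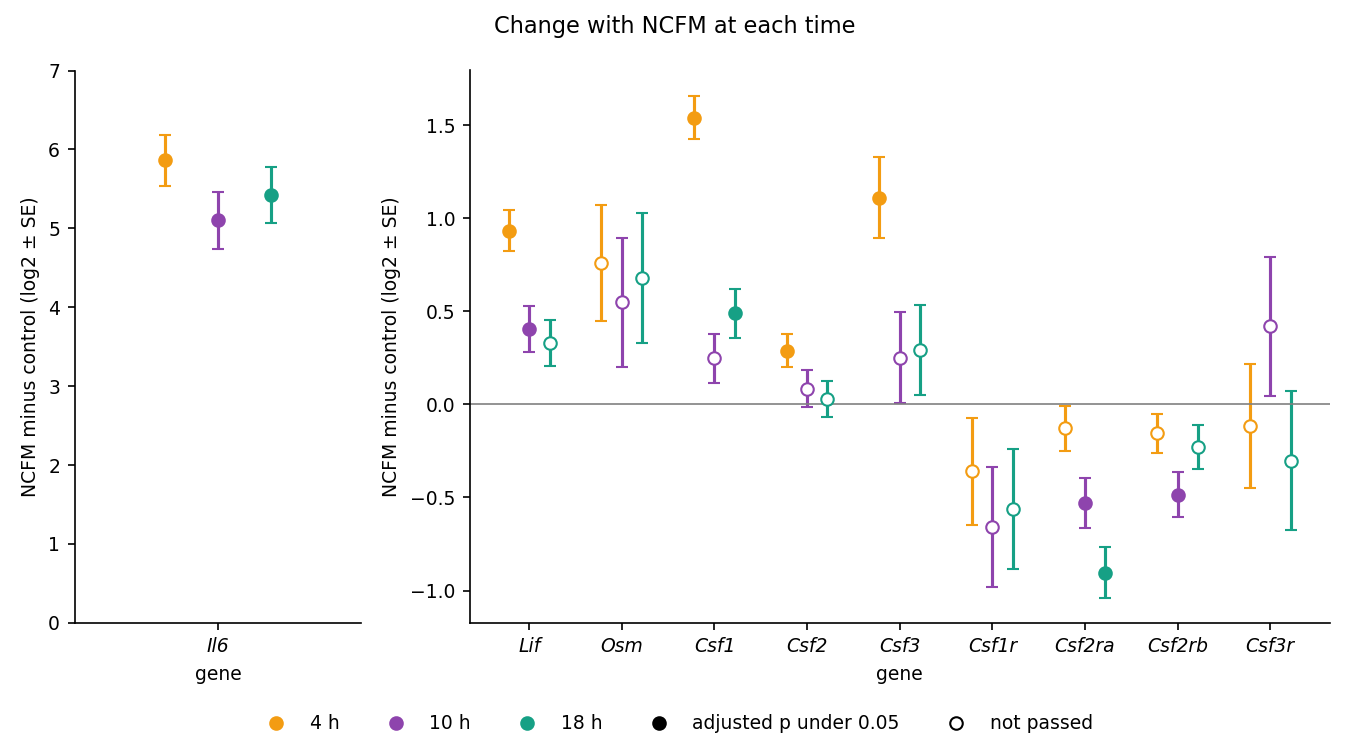
Log2 difference of NCFM from control for the 10 members at 4, 10 and 18 h, with the standard error as bars. Il6 has a panel of its own with its own scale, and filled points passed limma at adjusted p under 0.05. Il6 lies at 5.86, 5.10 and 5.42, far above the other members, whose differences lie between -0.90 and 1.54.

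Il6, the inflammatory cytokine of the acute phase response, had intensities of 15314, 17329 and 19695 on the NCFM arrays at 4 h, against 183, 433 and 337 on the control arrays. At 10 h it had 12994, 12550 and 13802 with NCFM, against 312 and 467 in control cells. At 18 h it had 13751, 9010 and 5968 with NCFM, against 188 and 236 in control cells. Every NCFM array lay far above every control array, and the NCFM arrays spread most at 18 h, where the number 3 array was lowest. The rise was 58.1-fold at 4 h (log2 5.86 ± 0.32 SE, adjusted p = 6.33e-07), 34.3-fold at 10 h (5.10 ± 0.36, 4.1e-06) and 42.9-fold at 18 h (5.42 ± 0.36, 2.58e-06). With NCFM the probe set lay between percentiles 98.7 and 99.9 of the arrays, against percentiles 54.7 to 79.2 in control cells. The size of the fold depends on how background is treated, and with background subtracted the log2 rises were 6.25, 5.38 and 5.96. The level in NCFM cells at 10 h did not pass against 4 h (-0.41 ± 0.32, adjusted p = 0.599).

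Lif, leukaemia inhibitory factor, which signals through gp130 paired with the LIF receptor, had 371, 412 and 372 with NCFM at 4 h, against 203, 201 and 200 in control cells. The difference was 1.91-fold (0.93 ± 0.11, adjusted p = 1.39e-04). At 10 h the values were 283, 242 and 281 with NCFM, against 184 and 223 in control cells, and at 18 h 328, 270 and 237, against 215 and 224. The groups did not overlap at any time, but the gap was wide only at 4 h. Lif rose at 10 h (0.40 ± 0.12, adjusted p = 0.0313), but not if control 10 h replicate 1 was left out (0.27, adjusted p = 0.309), nor NCFM 10 h replicate 1 or NCFM 10 h replicate 3. Under the alternatives its adjusted p lay between 0.0105 and 0.414. At 18 h the difference was 0.33 ± 0.12 (adjusted p = 0.0731), and it passed if NCFM 18 h replicate 3 was left out (0.44, adjusted p = 0.0215; 0.0215 to 0.23 over all alternatives). Within NCFM cells Lif was lower at 10 h than at 4 h (-0.52 ± 0.11, adjusted p = 0.0161), a call that was lost without NCFM 4 h replicate 2 or NCFM 10 h replicate 2. Its other probe set was dim, between the 25.9th and 43.3rd percentile of the arrays, and passed only at 18 h (0.31, adjusted p = 0.0185 over all probe sets).

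Osm, oncostatin M, a gp130 cytokine made by activated myeloid cells whose gene lies next to Lif on chromosome 11, had 1172, 917 and 733 with NCFM at 4 h, against 654, 524 and 474 in control cells. At 10 h it had 1181, 855 and 792 with NCFM, against 722 and 558 in control cells. At 18 h it had 1671, 794 and 627 with NCFM, against 651 and 529 in control cells. The groups did not overlap at 4 h and 10 h and overlapped at 18 h, and the number 1 array was the highest of its group in all 6 groups, by a mean of 0.56 on the log2 scale. Without the pairing Osm did not pass (0.76 ± 0.31, 0.55 ± 0.35 and 0.68 ± 0.35 at 4, 10 and 18 h, adjusted p = 0.117, 0.276 and 0.186). With arrays paired by number it passed at all 3 times, with 0.76 ± 0.15 (adjusted p = 0.00409), 0.72 ± 0.18 (0.00981) and 0.85 ± 0.18 (0.00388). Osm also passed at 4 h without the pairing if NCFM 18 h replicate 1, its highest array, was left out of the shared estimate of spread (adjusted p = 0.0259). All 7 same-number pairs had Osm higher with NCFM, by 0.59 to 1.36.

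**Figure D2:**
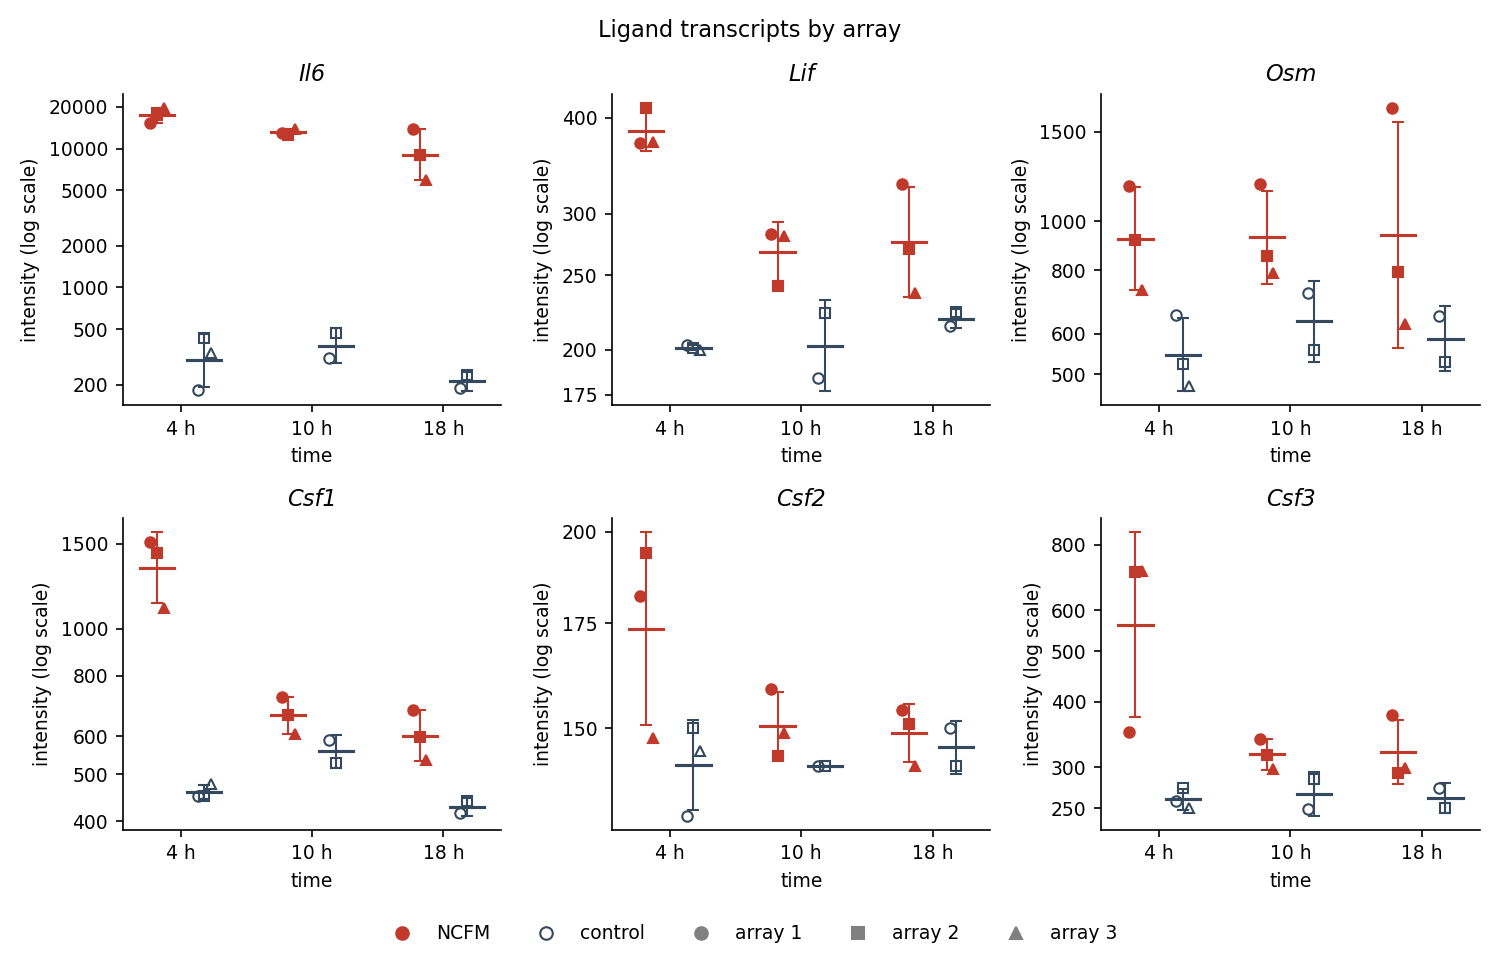
Intensity of the 6 ligand genes on each array (log axis), NCFM left of control at each of 4, 10 and 18 h; points are arrays marked by their number and bars the mean of the log2 values with its SD. Il6 separates at every time, Lif and Csf1 most at 4 h, Csf3 on the number 2 and 3 arrays at 4 h, and Osm is highest on the number 1 array of each group.

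Csf1, the growth factor that keeps macrophages alive, had 1514, 1434 and 1105 with NCFM at 4 h, against 452, 451 and 477 in control cells. Its 10 h values were 723, 664 and 606 with NCFM, against 590 and 528 in control cells, and at 18 h 680, 599 and 535, against 416 and 441. The groups were far apart at 4 h and close but not overlapping later. The rise was 2.91-fold at 4 h (1.54 ± 0.12, adjusted p = 6.79e-06). At 10 h the difference was 0.25 ± 0.13 (adjusted p = 0.194), and with arrays paired by number it passed (0.31 ± 0.10, adjusted p = 0.0418). At 18 h Csf1 was 1.40-fold higher (0.49 ± 0.13, adjusted p = 0.0176), a call that was lost without NCFM 18 h replicate 1, control 18 h replicate 1 or control 18 h replicate 2 (adjusted p = 0.0545, 0.0898 and 0.0592; 0.00177 to 0.0898 over all alternatives).

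Csf1 was the ligand whose response was shown to differ between times. Its NCFM effect was smaller at 10 h than at 4 h by -1.29 ± 0.18 (adjusted p = 0.0125) and smaller at 18 h than at 4 h by -1.05 ± 0.18 (0.00857). The percentage of all genes that passed was 0.506% for 10 h minus 4 h and 3.4% for 18 h minus 4 h. The effect at 10 h minus 4 h did not pass once control 10 h replicate 1 was left out (-1.21, adjusted p = 0.0833; 0.00205 to 0.0833 over all alternatives). Within NCFM cells Csf1 was 2.02-fold lower at 10 h than at 4 h (-1.01 ± 0.12, adjusted p = 4.92e-04). The effects at 18 h and 10 h were not distinguishable (0.24, adjusted p = 0.879). All 4 Csf1 probe sets rose at 4 h, the other 3 by 1.40 (adjusted p = 1.72e-06 over all probe sets), 0.71 (2.11e-04) and 0.48 (0.00572). The effect differed between times in 2 of the 4. The second probe set had -1.30 for 10 h minus 4 h and -1.05 for 18 h minus 4 h (adjusted p = 0.0026 and 0.00208 over all probe sets), whereas the dimmer ones had -0.25 and -0.30 (0.6 and 0.312) and -0.31 and -0.18 (0.547 and 0.687). The dimmer probe set with 0.71 at 4 h also rose at 10 h (0.45, adjusted p = 0.00547).

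Csf3, which drives the making and release of neutrophils, had 351, 711 and 713 with NCFM at 4 h, against 258, 274 and 250 in control cells. The 10 h arrays had 340, 316 and 297 with NCFM, against 249 and 285 in control cells, and at 18 h 378, 292 and 299, against 274 and 250. The groups did not overlap at any time, and at 4 h the NCFM number 1 array lay well below the number 2 and 3 arrays. Csf3 rose 2.16-fold at 4 h (1.11 ± 0.22, adjusted p = 0.00396), and the differences at 10 h (0.25 ± 0.24, adjusted p = 0.481) and 18 h (0.29 ± 0.24, 0.427) did not pass. With only the number 1 and 2 arrays and the pairing, the 4 h difference was 0.91 and did not pass (adjusted p = 0.071; 1.42e-05 to 0.071 over all alternatives). The difference between the effects at 10 h and 4 h was -0.86 ± 0.33 (adjusted p = 0.343), and without NCFM 4 h replicate 1 it was -1.20 and passed (adjusted p = 0.00984; 0.00984 to 0.714 over all alternatives). Within NCFM cells Csf3 was lower at 10 h than at 4 h (-0.83 ± 0.22, adjusted p = 0.0435), a call that was lost under 19 of 28 alternatives (adjusted p up to 0.33), among them leaving out any 1 of the 3 NCFM arrays at 10 h.

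Csf2, the cells' own GM-CSF gene, which lies next to Il3 on chromosome 11, was dim throughout, between the 38.5th and 57.7th percentile of the arrays. It had 182, 194 and 148 with NCFM at 4 h, against 132, 150 and 145 in control cells. Its 10 h values were 159, 144 and 149 with NCFM, against 142 and 142 in control cells, and at 18 h 154, 151 and 142, against 150 and 142. Only the number 1 and 2 NCFM arrays at 4 h stood out, and the groups overlapped at 4 h and 18 h. The 4 h difference passed by a small margin at 1.22-fold (0.29 ± 0.09, adjusted p = 0.0413), and it was lost under 13 of 28 alternatives, with adjusted p from 0.00299 to 0.155. Among them were the fits without NCFM 4 h replicate 2 (0.21) and without any 1 of the 3 control arrays at 4 h. Csf2 had 0.08 at 10 h (adjusted p = 0.57) and 0.03 at 18 h (0.868).

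The promoter windows of Il6, Lif and Csf1 are shown because these ligands rose at 4 h and each window holds a match to the consensus of NF-kB, a transcription factor that bacterial products activate. The windows are RefSeq sequences on GRCm38.p6, from 250 bases before the annotated start site to 50 after it. They lie at chr5:30012864-30013163 on the plus strand for Il6, chr11:4257318-4257617 on the plus strand for Lif and chr3:107760420-107760719 on the minus strand for Csf1. Capitals mark matches to NF-kB, AP-1 and C/EBP motifs on either strand.
Il6: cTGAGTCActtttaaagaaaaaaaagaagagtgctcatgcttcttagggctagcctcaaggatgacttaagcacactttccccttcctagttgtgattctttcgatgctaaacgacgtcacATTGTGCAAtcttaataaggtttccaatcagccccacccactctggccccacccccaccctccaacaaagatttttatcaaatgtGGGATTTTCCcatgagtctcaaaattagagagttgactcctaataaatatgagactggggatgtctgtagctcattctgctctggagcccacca
Lif: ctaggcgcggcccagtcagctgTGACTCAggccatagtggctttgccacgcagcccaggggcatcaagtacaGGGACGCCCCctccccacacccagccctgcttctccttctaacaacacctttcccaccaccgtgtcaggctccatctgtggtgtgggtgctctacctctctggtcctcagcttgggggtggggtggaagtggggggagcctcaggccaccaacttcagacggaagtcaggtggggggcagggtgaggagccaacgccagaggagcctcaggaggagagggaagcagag
Csf1: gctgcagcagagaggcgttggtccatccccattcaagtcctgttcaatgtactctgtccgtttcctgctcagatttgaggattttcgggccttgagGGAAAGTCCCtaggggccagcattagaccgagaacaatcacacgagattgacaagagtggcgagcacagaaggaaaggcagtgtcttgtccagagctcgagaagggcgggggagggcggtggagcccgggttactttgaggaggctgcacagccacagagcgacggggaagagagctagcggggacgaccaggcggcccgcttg
With the start site base as position 0, the NF-kB match spans -44 to -35 in Il6, -178 to -169 in Lif and, on the other strand, -154 to -145 in Csf1. The AP-1 match (TGANTCA) spans -249 to -243 in Il6 and -228 to -222 in Lif, and the C/EBP match (TTNCNNAAT) spans -129 to -121 in Il6. None of these matches overlaps another. Of 32851 RefSeq promoter windows of the same length, 8.46% hold the NF-kB consensus, 7.81% the AP-1 letters and 12.2% the C/EBP letters.

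Promoter windows were found for 6 of the 10 members. The NF-kB consensus was in 4 of the 6, those of Il6, Lif, Csf1 and Csf3r, and Csf3r did not pass for NCFM against control at any time. Csf2 and Csf2ra had none, and the Csf2ra window held the CRE letters (TGACGTCA), which 1.79% of all windows hold. The STAT letters (TTCNNNGAA, 8.3% of all windows), the core of the ISRE, the interferon-stimulated response element (3.44%), the PU.1 letters (GAGGAAGT, 3.2%) and the core promoter letters TATAAA (13.6%) were in none of the 6. A match describes letters only, and binding was not measured.

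Csf2ra, the chain that binds GM-CSF, had 3710, 4472 and 5259 with NCFM at 4 h, against 4095, 5222 and 5333 in control cells. The 10 h arrays had 3218, 3659 and 3666 with NCFM, against 5077 and 5063 in control cells, and at 18 h 2779, 2907 and 2969, against 5428 and 5361. The groups overlapped at 4 h, and at 10 h and 18 h every NCFM array was below every control array. Csf2ra fell 1.87-fold at 18 h (-0.90 ± 0.14, adjusted p = 5.48e-04), and this call held in all alternatives. The fall at 10 h was 1.45-fold (-0.53 ± 0.14, adjusted p = 0.0128) and needed both control arrays, with adjusted p = 0.0823 if control 10 h replicate 1 was left out and 0.054 if control 10 h replicate 2 was (0.00101 to 0.0823 over all alternatives). At 4 h the difference was -0.13 ± 0.12 (adjusted p = 0.516). The effect at 18 h lay below that at 4 h by -0.77 ± 0.18 (adjusted p = 0.0387), a call that was lost under 16 of 28 alternatives, with adjusted p up to 0.0984, among them leaving out any 1 of the 3 NCFM arrays at 18 h. The other probe set of Csf2ra also fell at 18 h (-0.44, adjusted p = 0.0129 over all probe sets).

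Csf2rb, the beta chain that carries the signal of GM-CSF, IL-3 and IL-5, had 12063, 10329 and 11504 with NCFM at 4 h, against 12806, 11939 and 12961 in control cells. Its 10 h values were 10374, 9994 and 8901 with NCFM, against 14523 and 12775 in control cells, and at 18 h 12213, 9314 and 9513, against 12649 and 11417. In this brightest probe set of the gene the groups were apart only at 10 h, where Csf2rb fell 1.40-fold (-0.48 ± 0.12, adjusted p = 0.0104). It did not pass once control 10 h replicate 1 was left out (-0.39, adjusted p = 0.123; 0.0017 to 0.123 over all alternatives). The differences at 4 h (-0.16 ± 0.11, adjusted p = 0.353) and 18 h (-0.23 ± 0.12, 0.196) did not pass, though the 18 h difference did if NCFM 18 h replicate 1 was left out (-0.35, adjusted p = 0.0253; 0.0253 to 0.517 over all alternatives). The other probe set fell at 10 h as well (-0.59, adjusted p = 0.00563 over all probe sets). Its groups were also apart at 18 h, with 4746 to 6076 with NCFM, against 6444 and 6930 in control cells. Csf2rb lies next to its paralog Csf2rb2, which encodes a beta chain of the mouse IL-3 receptor. A probe set listed for both genes, which is not counted among the members, had -0.16, -1.05 and 0.37 at 4, 10 and 18 h and passed at 10 h (adjusted p = 0.0356). Its intensities at 10 h were 1177, 1156 and 1254 with NCFM, against 3636 and 1692 in control cells. These control arrays lay far apart. The split of signal between the paralogs is uncertain in that probe set.

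**Figure D3:**
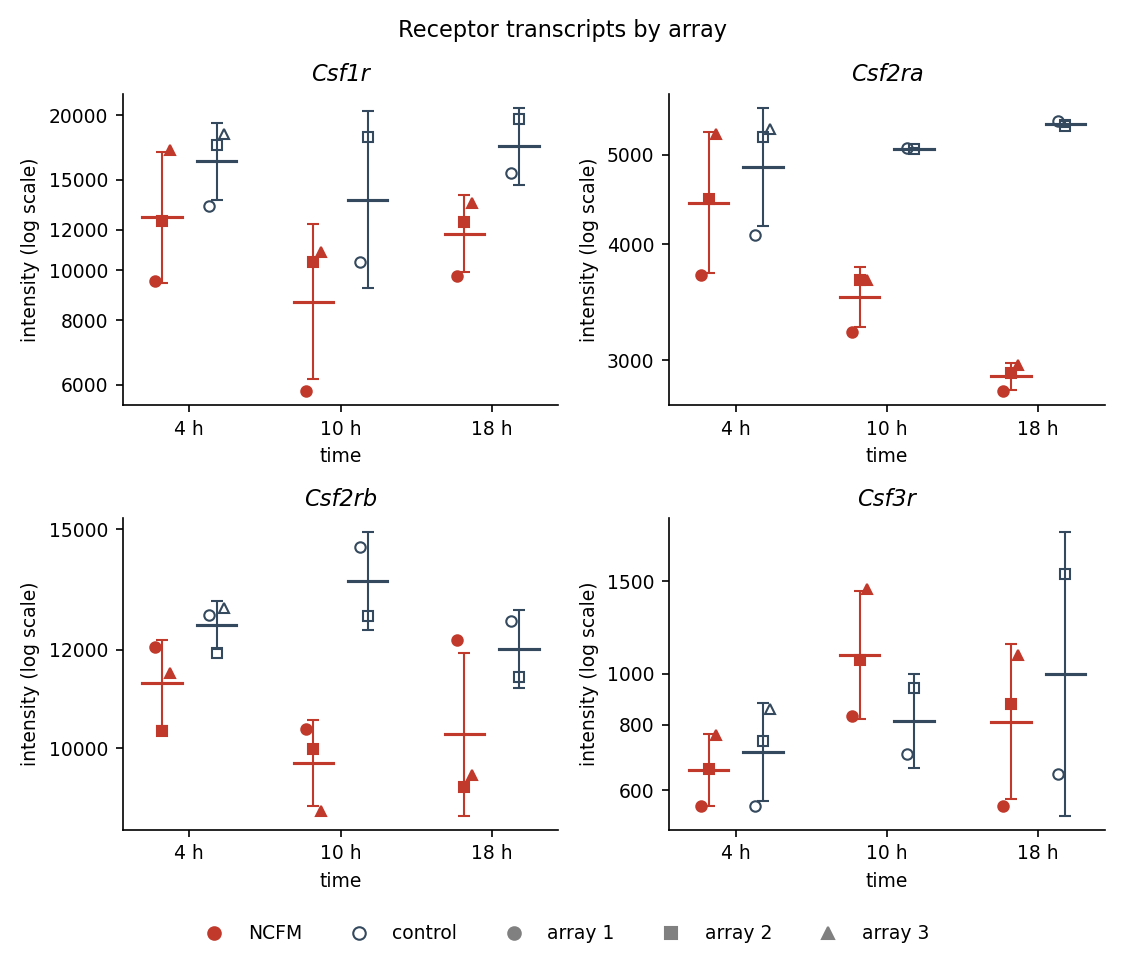
Intensity of the 4 receptor chains on each array (log axis), NCFM left of control at 4, 10 and 18 h; points are arrays marked by their number and bars the mean of the log2 values with its SD. Csf2ra separates at 10 h and 18 h and Csf2rb at 10 h, while the number 1 array is the lowest of its group for Csf1r and Csf3r in all 6 groups.

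Csf1r, the receptor of M-CSF, had 9558, 12447 and 17135 with NCFM at 4 h, against 13358, 17496 and 18434 in control cells. The 10 h arrays had 5831, 10373 and 10858 with NCFM, against 10370 and 18167 in control cells, and at 18 h 9737, 12420 and 13540, against 15426 and 19675. The groups overlapped at 4 h and 10 h and were apart at 18 h, and the number 1 array was the lowest of its group throughout, by a mean of 0.58 on the log2 scale. Without the pairing the differences did not pass (-0.36 ± 0.29, -0.66 ± 0.32 and -0.56 ± 0.32 at 4, 10 and 18 h, adjusted p = 0.438, 0.16 and 0.239). With arrays paired by number Csf1r passed at all 3 times, with -0.36 ± 0.12 (adjusted p = 0.0436), -0.80 ± 0.14 (0.00111) and -0.71 ± 0.14 (0.00237). It was lower with NCFM in 7 of 7 same-number pairs, by 0.11 to 0.83. Its other probe sets had -0.55, -1.29 and -0.85 in the first and -0.59, -1.33 and -0.89 in the second, and none of these passed without the pairing. The pairing also changed calls within NCFM cells at 10 h against 4 h, where Csf1r (-0.55, adjusted p = 0.0117), Csf2ra (-0.34, 0.0255) and Csf3r (0.73, 0.0131) passed with it, and at 18 h against 10 h for Csf1r (0.44, 0.0486).

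Csf3r, the receptor of G-CSF, had 559, 658 and 766 with NCFM at 4 h, against 560, 745 and 856 in control cells. At 10 h it had 831, 1064 and 1451 with NCFM, against 702 and 941 in control cells, and at 18 h 560, 875 and 1088, against 644 and 1551. The groups overlapped at every time and the number 1 array was the lowest of its group in all 6. Without the pairing, the 95% intervals of the difference were -0.84 to 0.61 at 4 h, -0.39 to 1.23 at 10 h and -1.11 to 0.51 at 18 h. These unpaired intervals exclude neither a fall nor a rise of moderate size. With arrays paired by number the differences were -0.11 ± 0.16, 0.25 ± 0.185 and -0.47 ± 0.185. None of the 3 passed (limma, adjusted p = 0.654, 0.331 and 0.08). Over the same-number pairs Csf3r was lower with NCFM in 5 and higher in 2.

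**Figure D4:**
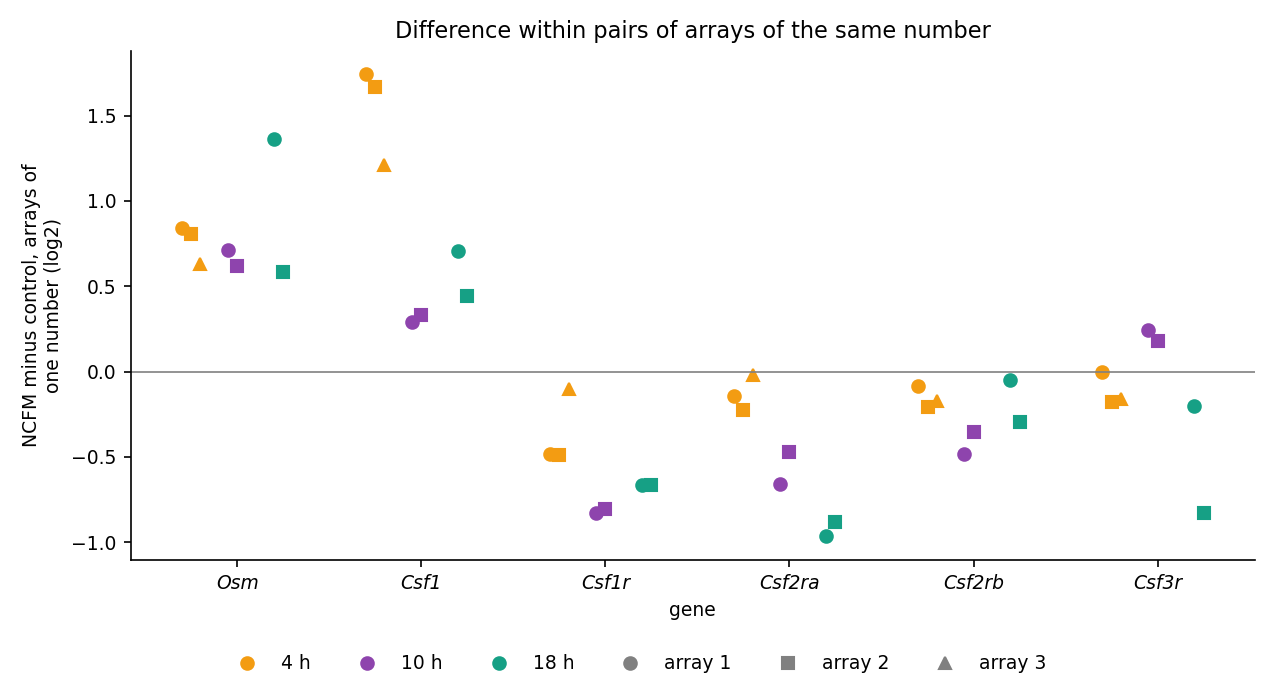
Log2 difference of NCFM from control for each of the 7 pairs of arrays with the same number, by time, for Osm, Csf1, Csf1r, Csf2ra, Csf2rb and Csf3r. Osm and Csf1 are above 0 in all 7 pairs, Csf1r, Csf2ra and Csf2rb are below 0 in all 7, and Csf3r lies on both sides.

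The 6 ligands were higher with NCFM in 7 of 7 same-number pairs, as were 11.2% of all genes, and Csf1r, Csf2ra and Csf2rb were lower in 7 of 7, as were 21.7% of all genes. Judged by arrays that did not overlap, 5 members were separated at 4 h, 8 at 10 h and 6 at 18 h, against 36.5%, 52.1% and 47.2% of all genes. In control cells 0 members passed at 10 h or 18 h against 4 h, where limma called 0% of all genes (0 members, and 553 and 559 genes, at an unadjusted p under 0.05). In NCFM cells 3 members were lower at 10 h than at 4 h (6.28% of all genes passed) and 0 passed at 18 h against 10 h (2.79% passed, and 1 member was at an unadjusted p under 0.05). For the effect at 18 h minus 10 h limma called 0 members, with 0 at an unadjusted p under 0.05, and 0.0055% of all genes.

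Markers of other myeloid cells moved with some of these values. A sum of intensities is carried mostly by its brightest probe sets. Among neutrophil markers S100a8 and S100a9 had median intensities of 10529.5 and 9791, against 180, 333 and 286 for Mpo, Elane and Prtn3. The summed intensity of the 9 measured neutrophil markers was 16808 to 41854 with NCFM at 4 h, against 38248 to 47483 in control cells. It was 16346 to 36941 at 10 h, against 47277 to 53914 in control cells, and 7470 to 18671 at 18 h, against 30292 to 31786. It was lower with NCFM in 7 of 7 same-number pairs, and 0, 4 and 3 of its genes fell at 4, 10 and 18 h, while Csf2ra fell at 10 h and 18 h and Csf2rb at 10 h. The summed intensity of the 7 macrophage markers was lower on the number 1 array in all 6 groups, by a mean of 0.83 on the log2 scale, as Csf1r and Csf3r were, and with NCFM it was lower in 2 of 7 pairs. It was 22463 to 46409 with NCFM at 4 h against 19477 to 37068 in control cells, 23692 to 41135 at 10 h against 17829 to 39613, and 26294 to 37428 at 18 h against 26722 to 43172. Of these 7 genes 1, 3 and 2 rose at 4, 10 and 18 h and none fell without the pairing (median differences 0.52, 0.91 and 0.45), times at which Csf1r had differences below 0. With the pairing 4, 3 and 2 rose and 0, 2 and 2 fell. Of the 9 neutrophil markers 1, 4 and 4 fell with the pairing at 4, 10 and 18 h, and 1 rose at 4 h. Of the 9 dendritic cell markers 0, 1 and 3 fell at 4, 10 and 18 h, with and without the pairing, and with it 1 rose at 10 h. With the pairing 4880, 5666 and 5557 of all 18193 genes passed at these times, in either direction, against 3335, 4488 and 4320 without it. The part of these markers in the members' differences was not tested.

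Among 5 measured of 8 other IL-6 family ligands, 2 rose at 4 h, 2 at 10 h and 3 at 18 h, and none fell. Of all genes 5.27%, 8.21% and 7.4% rose and 13.1%, 16.5% and 16.3% fell at these times without the pairing. These shares also stand beside the unpaired marker counts above. Clcf1, a gp130 cytokine that acts through the CNTF receptor, had 399, 451 and 515 with NCFM at 4 h, against 163, 184 and 202 in control cells. It rose by 1.31 ± 0.10 at 4 h (adjusted p = 9.02e-06), 0.37 at 10 h and 0.37 at 18 h, and its effect was smaller at 18 h than at 4 h (-0.94, adjusted p = 0.00857), which is the order of effects seen for Csf1. Ebi3, the subunit that IL-27 and IL-35 share, had 0.68 at 4 h (adjusted p = 0.0915) and rose by 1.36 at 10 h and 1.11 at 18 h, and it passed at 4 h with the pairing (adjusted p = 0.04). Il11, a gp130 cytokine, was dim and rose by 0.20 at 4 h (adjusted p = 0.0316) and 0.24 at 18 h (0.0194). Of 7 measured IL-6 family receptor chains none rose. Il6st, which encodes gp130, had 332, 394 and 460 with NCFM at 4 h, against 529, 696 and 936 in control cells, with all NCFM arrays below the controls. It fell by -0.84 ± 0.18 at 4 h (adjusted p = 0.00772), -1.08 at 10 h and -1.08 at 18 h. Il6ra, the IL-6 binding chain, passed only at 10 h (-0.39, adjusted p = 0.0488) and had -0.34 at 4 h and -0.13 at 18 h. With the pairing it did not pass at 10 h (-0.35, adjusted p = 0.067).

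Of 16 genes of JAK-STAT signalling, 4 rose and 1 fell at 4 h, 6 rose and 1 fell at 10 h, and 5 rose and 1 fell at 18 h. Over all genes 5.27%, 8.21% and 7.4% rose and 13.1%, 16.5% and 16.3% fell at these times without the pairing. Socs3, the inhibitor that binds gp130 and the G-CSF receptor, had 8119, 7176 and 9506 with NCFM at 4 h, against 1206, 674 and 482 in control cells. The groups were far apart at every time, and Socs3 rose by 3.49, 2.95 and 3.40 at 4, 10 and 18 h. Socs1, an inhibitor of JAK kinases, rose by 2.75, 2.18 and 2.18. Stat5a, which GM-CSF receptor signalling activates, rose at 4 h (1.27) and 10 h (1.07) and, with the pairing, at 18 h (0.77, adjusted p = 3.97e-04). Jak2, the kinase of the beta chain, rose at 4 h (0.69) and 10 h (0.77) and, with the pairing, at 18 h (0.42, 0.023). Stat3 rose at 10 h (0.77) and 18 h (0.82) and, with the pairing, at 4 h (0.51, 0.0185). Pim1, a kinase that STAT factors induce, rose at 18 h (1.05) and, with the pairing, at 4 h (0.89, 0.0124) and 10 h (1.00, 0.0117). Inpp5d, which encodes the phosphatase SHIP1, fell at 4 h (-1.09) and 10 h (-0.92) and, with the pairing, at 18 h (-0.79, 0.0117). The kinase gene Tyk2 passed at 10 h with the pairing (0.37, adjusted p = 0.0162). Ptpn11, which encodes the phosphatase SHP2, fell at 18 h (-0.23, adjusted p = 0.0279). In all, with the pairing 7 rose and 1 fell at 4 h, 8 rose and 1 fell at 10 h, and 7 rose and 2 fell at 18 h. Over all 18193 genes the pairing gave 4880, 5666 and 5557 calls at these times, in either direction. Without it there were 3335, 4488 and 4320. Of 9 measured other growth factors and receptors of the myeloid group none passed at 4 h and 10 h, and at 18 h Kit, the stem cell factor receptor, fell by -1.04. With the pairing Csf2rb2 also passed at 10 h (-0.57, adjusted p = 0.0208).

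Of 11 measured transcription factors known to act on Il6 or Csf genes, 6 rose and none fell at 4 h, 3 rose and 1 fell at 10 h, and 5 rose and 1 fell at 18 h. For these and the stability genes below, the unpaired shares of all genes were 5.27%, 8.21% and 7.4% higher and 13.1%, 16.5% and 16.3% lower. Nfkbiz, an inducible NF-kB partner that Il6 transcription depends on, rose by 3.89, 2.08 and 1.13 at 4, 10 and 18 h, and its effect was smaller at 18 h than at 4 h (-2.75, adjusted p = 0.00887). Irf1 rose by 2.14, 1.36 and 1.01, and Rel, an NF-kB subunit, rose at 4 h (1.61). The AP-1 subunits Junb (1.06, 0.83 and 1.09) and, at 4 h and 18 h, Fosl1 (1.02 and 1.12) rose as well. Cebpb rose at 18 h (0.57, adjusted p = 0.0429) and, with the pairing, at 10 h (0.49, adjusted p = 0.0459). Cebpd, a C/EBP factor, had 0.46 at 4 h and fell by -1.22 at 10 h and -2.40 at 18 h. Of 10 genes that control the stability of such transcripts, 3 rose and 1 fell at 4 h, 3 rose and 1 fell at 10 h, and 2 rose and 2 fell at 18 h. Arid5a, which stabilises Il6 mRNA, rose by 1.92, 1.23 and 0.74. Zc3h12a, the RNase Regnase-1 that degrades Il6 mRNA, rose by 1.34 at 4 h and 1.07 at 10 h and, with the pairing, at 18 h (0.65, adjusted p = 0.04). Zfp36, encoding tristetraprolin, rose by 1.13, 1.23 and 0.98, and its relative Zfp36l2 fell by -2.53, -1.87 and -1.18. Khsrp, an RNA-binding decay factor, fell at 18 h (-0.28, adjusted p = 0.0443). With the pairing 5 of the 10 fell at 18 h, Rc3h1, which encodes roquin, its paralog Rc3h2 and Elavl1, which encodes the mRNA-stabilising protein HuR, passing with -0.89, -0.40 and -0.69, and Rc3h1 also at 10 h (-0.42, adjusted p = 0.0337). Over all 18193 genes the pairing gave 5666 calls at 10 h and 5557 at 18 h, in either direction, against 4488 and 4320 without it.

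**Figure D5:**
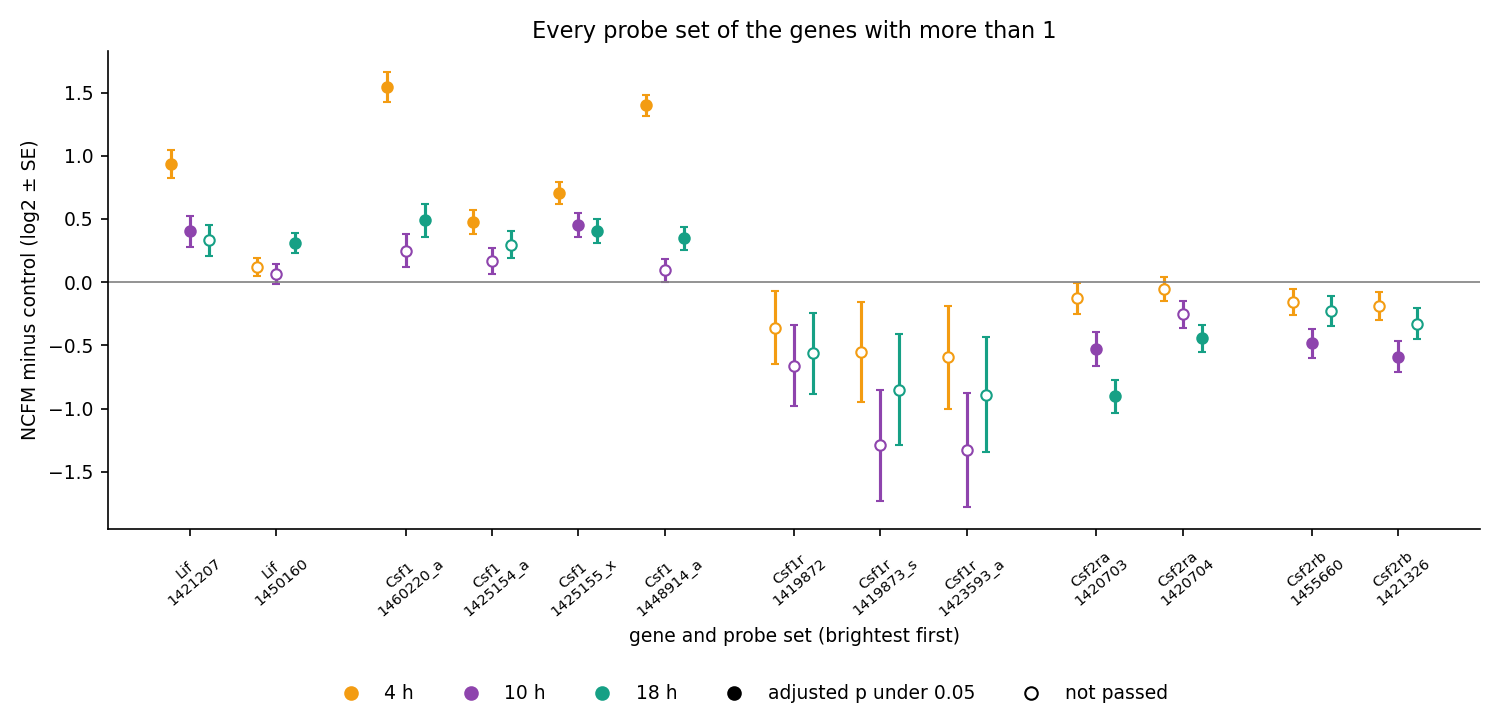
Log2 difference of NCFM from control with its standard error at 4, 10 and 18 h, for every probe set of Lif, Csf1, Csf1r, Csf2ra and Csf2rb, the members with several. Filled points passed limma at adjusted p under 0.05 over all probe sets. The 4 Csf1 probe sets are all above 0 at 4 h, with 0.48 to 1.54, and the 3 Csf1r probe sets are all below 0 at every time without passing.

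The genes whose log2 values were most alike over the 16 arrays differed by member. These Pearson correlations describe arrays that share the 6 groups, with no test. Il6 was most like Ptgs2 (r = 0.992), Cxcl10 (0.987) and Il1a (0.987). Lif was most like Ifi203 (0.946), Ifnb1 (0.943) and Nfkbiz (0.937), and Csf1 most like Ifnb1 (0.952), Edn1 (0.926) and Clcf1 (0.924). Csf3 was most like Nxpe3 (0.957), Il1bos (0.956), which is antisense to Il1b and may share its signal, and Ereg (0.953). Csf2 was most like Csf1 (0.813), Spin2c (0.792) and Ifnb1 (0.785). Csf2ra was most like Emc2 (0.964), Mmp8 (0.961), which is 1 of the neutrophil markers, and Cmtm3 (0.953). Csf2rb was most like Prkca (0.933), Nipsnap1 (0.932) and Ddx18 (0.923). Among member pairs, Lif and Csf1 (0.89), Lif and Csf3 (0.856) and Il6 and Lif (0.841) were most alike, and Osm and Csf1r ran opposite (-0.807), both of which varied with array number.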

How the data were processed

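Gene expression was measured on 16 single-channel arrays of bone marrow dendritic cells. The authors deposited a table of linear intensities, 42 to 31573, for 45101 probe sets. The summary of probe sets and any background correction or normalization are not given in the sources used here. Of these, 34945 name 1 gene in the platform's probe table, 932 several, 9160 are unlisted and 64 are controls. Identifiers matched the RefSeq gene table for 34754 of 34958 entries.

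Intensities were taken to log2 (base 2). A gene's value was that of its brightest probe set. limma 3.58.1 (R 4.3.3; lmFit and eBayes, 10 residual degrees of freedom, checked on simulated data) was fitted to all genes with a mean for each of 6 groups and no block. Tests were two-sided with Benjamini-Hochberg adjustment over all genes, or over all probe sets where that is said. ± is the standard error of a log2 difference. The number of arrays limits the precision.

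Array numbers come from the labels, which do not say what a shared number means. They were used as pairs because all 36 same-number pairs of arrays correlated above 0.1 in their deviations from group means (0.19 to 0.75; 70 pairs of different number had -0.75 to 0.73, median -0.32). A fit blocked on array number is among the alternatives.

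All 10 members are named. From each pathway list, genes that passed are named, up to 4 in each direction at each time, and a gene named at 1 time may be given at others. Genes that passed only with the pairing are named too. For members that passed at some time, the 3 genes of highest Pearson correlation are named. Members and lists were chosen with earlier results of these data known. Promoter windows were read from RefSeq (GRCm38.p6) and searched for motif letters on both strands with Python 3.11.15. The alternatives were other normalization, centring, background treatment, probe set summary, filter, variance model, sample subset, threshold, block and each array left out.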

Additional observations from a re-analysis of the deposited data

Results flagged for a closer look

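The NCFM effect on Csf1 differed between times by the test of the difference itself. It was smaller at 10 h than at 4 h by -1.29 ± 0.18 on the log2 scale (limma, adjusted p = 0.0125) and smaller at 18 h than at 4 h by -1.05 ± 0.18 (adjusted p = 0.00857). The 10 h minus 4 h difference did not pass if control 10 h replicate 1 was left out (adjusted p = 0.0833), and only 2 of the 4 Csf1 probe sets showed either difference. The NCFM arrays had 1105 to 1514 at 4 h, 606 to 723 at 10 h and 535 to 680 at 18 h. The effect on Csf2ra differed between 18 h and 4 h by -0.77 ± 0.18 (adjusted p = 0.0387), but that call was lost under 16 of 28 alternatives (adjusted p up to 0.0984), among them leaving out any 1 of the NCFM or control arrays at 18 h.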

How the results depend on the processing

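No member changed direction after being called. At 4 h 4 to 7 members passed over the alternatives, and 4 to 6 with 1 array left out, against 5. At 10 h 1 to 4 passed with 1 array left out (1 without control 10 h replicate 1), 7 with the replicate block and 1 at adjusted p under 0.01, against 4. At 18 h 2 to 4 passed with 1 array left out, 5 with the replicate block and 6 with only the number 1 and 2 arrays and the block, against 3. For the effect at 10 h minus 4 h, 0 to 2 passed with 1 array left out (2 without NCFM 4 h replicate 1, 0 without control 10 h replicate 1), 6 with centring on 18 spike-in probe sets and 0 at adjusted p under 0.01, against 1. For 18 h minus 4 h, 1 to 3 passed with 1 array left out, and 1 with a trended robust variance, with only the groups compared or at adjusted p under 0.01, against 2. For NCFM cells at 10 h against 4 h, 1 to 4 passed with 1 array left out (1 without NCFM 4 h replicate 2 or NCFM 10 h replicate 2), 7 with spike-in centring, 6 with the replicate block, 1 with only the number 1 and 2 arrays and the block and 1 at adjusted p under 0.01, against 3. For NCFM cells at 18 h against 10 h, 0 to 0 passed with 1 array left out and 1 with the replicate block, against 0. Leaving out 1 array also let Lif pass at 18 h minus 4 h (-0.73 without NCFM 18 h replicate 1), Csf3 at 18 h minus 4 h (-1.16 without NCFM 4 h replicate 1), and, within NCFM cells at 10 h against 4 h, Csf2 (-0.32 without NCFM 4 h replicate 3) and Csf2ra (-0.47 without NCFM 4 h replicate 1). The pairing changed no other call of a member than those given above. Over all genes, NCFM against control gave 4880, 5666 and 5557 calls with the block, against 3335, 4488 and 4320. Of all 18193 genes, 2291 passed with the block for NCFM cells at 10 h against 4 h, and 1142 without it. For NCFM cells at 18 h against 10 h the counts were 1316 and 507. Centring on spike-in probe sets moved the median difference of all genes to 0.18 at 4 h, -0.24 at 10 h and 0.00 at 18 h. It gave 4050, 6832 and 3126 calls over all genes at these times. Its all-gene calls for changes between times are not given here. Under it Csf1 had -0.01 and Lif 0.15 (adjusted p = 0.414) at 10 h, Osm 0.95 (0.046) at 4 h, Csf1r -0.91 (0.0366) at 10 h and Csf1 0.49 (0.0717) at 18 h. The same centring gave Csf2ra 0.06, Csf2rb 0.04 and Csf3r 0.08 at 4 h, none of which passed. The causes of these shifts were not tested. Csf2 and the second Lif probe set lay near or below the array medians, where small differences are limited by signal over background.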

Other observations

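Cish and Socs2, feedback inhibitors that STAT5 induces after GM-CSF and related cytokines, differed by array number. Without the pairing neither passed for NCFM against control (Cish 0.94, -0.29 and 0.31 and Socs2 0.01, -0.29 and -0.11 at 4, 10 and 18 h). With arrays paired by number Cish had 0.94 ± 0.29 at 4 h (limma, adjusted p = 0.034), 0.14 ± 0.33 at 10 h (0.777) and 0.74 ± 0.33 at 18 h (0.121), and it was higher with NCFM in 7 of 7 same-number pairs, by 0.04 to 1.5. Socs2 was higher in 4 and lower in 3. Cish had 3592, 3468 and 3697 on the number 1 NCFM arrays at 4, 10 and 18 h, against 3497, 3055 and 2947 on the number 1 control arrays. On the number 2 and 3 arrays it had 696 to 2228 with NCFM and 482 to 926 in control cells. The number 1 array was higher in 6 of 6 groups, by a mean of 1.94 on the log2 scale for Cish and 0.95 for Socs2. Csf2rb, the shared beta chain, was higher on the number 1 array in 6 of 6 groups as well, by a mean of 0.17, while Csf1r was lower by 0.58. What sets the number 1 arrays apart was not tested.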
